A study of Mus musculus with 8 samples.

Results

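Cytosolic ribosomal protein genes were followed as a family in Merkel cells and in epidermal cells of newborn mouse skin. Members were chosen by symbol: every gene whose name is Rpl or Rps followed by a number, with the optional letters a, x, y or l, together with the stalk genes Rplp0, Rplp1 and Rplp2 and with Rpsa. Pseudogene names and the Rps6k kinases were left out. The rule found 85 of the 24538 genes in the count files, 52 of the large (60S) subunit and 33 of the small (40S) subunit. All samples came from Atoh1-GFP mice at postnatal day 0, so every group carries the GFP allele. Merkel cells, the touch receptors of the epidermis, were sorted for GFP and EpCAM and against Sca1. The comparison cells, called IFE by the submitters without spelling it out, lacked GFP and carried EpCAM and Sca1. Both were taken from paw skin and from back skin after collagenase and trypsin digestion, and 2 libraries were made for each of the 4 groups. No label tells whether replicate libraries stem from different animals, so the p-values reflect the spread among these libraries, which may be technical. These are bulk libraries of sorted cells, so a change in cell makeup and a change in RNA per cell cannot be told apart.

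A ribosome joins a small subunit, which reads the messenger RNA, to a large subunit, which forms the peptide bond. Each subunit holds ribosomal RNA and a fixed set of proteins, 1 copy of nearly every one per ribosome, so the cell makes these proteins in matched amounts. Mammalian genomes carry many processed copies of ribosomal protein genes, which share their coding sequence. Most ribosomal protein mRNAs start with a C followed by a run of pyrimidines, the 5′ terminal oligopyrimidine (TOP) motif, through which mTORC1 and Larp1 control their translation.

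The annotated transcription starts show how far that motif can be read from these gene models. RefSeq start sites (build GRCm38.p6) were found for 64 of the 85 members. A C at the annotated start followed by at least 4 further C or T bases, read on the transcribed strand only, stood at a start of 14 of the 64 (21.9%), against 3.01% of 27025 genes in the same table. The windows below run from 15 bases before the start to 15 bases from it, and capitals mark the pyrimidine run. They show 6 members with the run and 2 highly expressed members, Rpl4 and Rps3, without it at the annotated base. Rpl14 lies at chr9:120571502-120571531 (plus strand), Rpl15 at chr14:18270972-18271001 (minus), Rps6 at chr4:86857353-86857382 (minus) and Rplp2 at chr7:141447636-141447665 (plus). Rps18 lies at chr17:33955651-33955680 (minus), Rps10 at chr17:27635230-27635259 (minus), Rpl4 at chr9:64173372-64173401 (plus) and Rps3 at chr7:99483695-99483724 (minus).
Rpl14: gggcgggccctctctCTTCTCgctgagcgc
Rpl15: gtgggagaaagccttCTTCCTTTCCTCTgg
Rps6: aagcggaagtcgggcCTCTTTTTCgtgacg
Rplp2: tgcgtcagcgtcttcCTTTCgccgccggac
Rps18: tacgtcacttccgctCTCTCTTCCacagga
Rps10: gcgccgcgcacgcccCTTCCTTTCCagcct
Rpl4: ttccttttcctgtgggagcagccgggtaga
Rps3: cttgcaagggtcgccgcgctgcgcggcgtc
Of the members that were lower in back Merkel cells (below), 2 of the 17 with an annotated start carried the run, Rpl14 and Rpl15, against 12 of the other 47. A missing run says only that these letters are not at the annotated base.

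Total gene counts ran from 11139306 to 26195076 per library. The marker genes of Merkel cells set the sorts apart: all 9 listed were higher in Merkel than in IFE libraries at both sites. Basal keratinocyte markers were lower in Merkel libraries for 7 of 8 genes in paw and for 8 of 8 in back, with summed levels of 1732 to 4066 CPM (read counts per gene after TMM scaling to equal library sizes) against 28021 to 44863 CPM in IFE libraries. Suprabasal keratinocyte markers summed to 5252 CPM in paw Merkel library 1 and to 412 CPM in library 2, so these replicates differed in that signal. They summed to 6071 and 10636 CPM in paw IFE, 1936 and 1064 CPM in back Merkel and 7677 and 4599 CPM in back IFE libraries. Paw Merkel library 1 thus lay within the range of the IFE libraries. Immune markers (7 genes) summed to 1032 and 151 CPM in back IFE libraries 1 and 2 and to 0.228 and 0.489 CPM in back Merkel libraries, where Cd207, Lyz2 and Cd52 were at 0. The part these other cell types play in the levels below was not tested.

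The family took a small share of every library, and a smaller share in Merkel than in IFE libraries of the same site. Ribosomal protein genes held 0.348% (library 1) and 0.189% (library 2) of all gene counts in paw Merkel cells, against 0.452% and 0.527% in paw IFE cells. In back skin they held 0.161% and 0.140% in the Merkel libraries and 0.625% and 0.617% in the IFE libraries. The groups did not overlap at either site, and the back groups lay further apart. The order was back Merkel, paw Merkel, paw IFE, back IFE, with no overlap between neighbours, although 2 libraries a group give little measure of spread. Summed FPKM, which corrects for transcript length, gave the same order, with 0.543% and 0.376% in back Merkel, 1.13% and 0.648% in paw Merkel, 1.43% and 1.80% in paw IFE and 2.09% and 2.2% in back IFE libraries. Paw Merkel library 1, the one with the higher suprabasal signal, also had the higher ribosomal protein share of its pair. The 78 mitochondrial ribosomal protein genes, a different ribosome, also took a smaller share in Merkel libraries without overlap. They held 0.0971% and 0.0786% of counts in paw Merkel against 0.111% and 0.106% in paw IFE libraries, and 0.0797% and 0.0765% in back Merkel against 0.136% and 0.139% in back IFE libraries. Malat1, an abundant nuclear RNA, moved the opposite way. It held 4.81% and 8.33% of counts in paw Merkel and 5.88% and 7.75% in back Merkel libraries, against 2.56% to 3.35% in the 4 IFE libraries. In both Merkel pairs and in back IFE library 2 had more Malat1 and the smaller ribosomal protein share. The paw IFE pair went the other way, with more Malat1 in library 2 (2.97% against 2.56%) and the larger share. The part of library composition or RNA quality in that share was not tested.

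**Figure D1:**
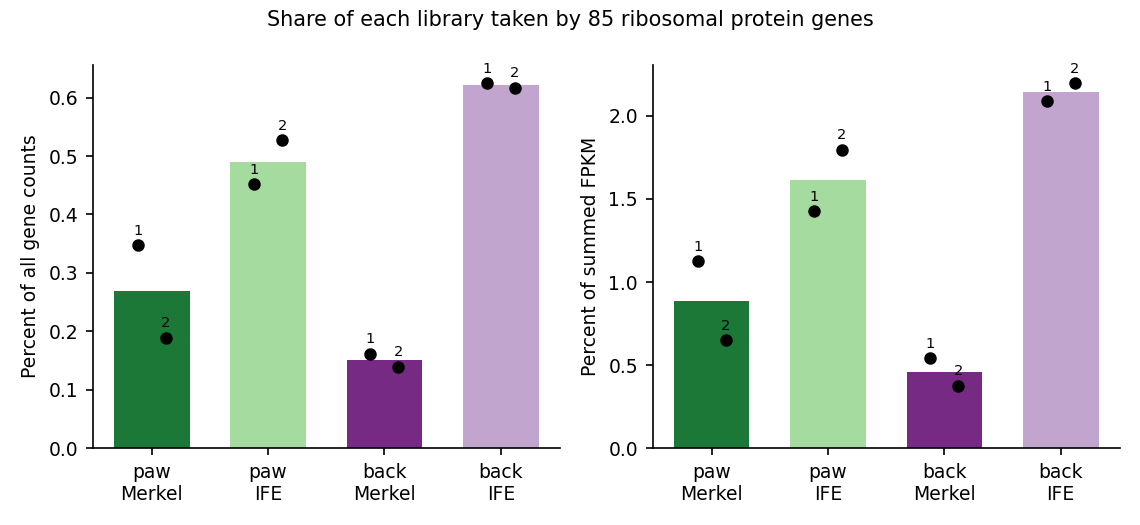
Percent of all gene counts (left) and of summed FPKM (right) in the 85 ribosomal protein genes; bars are means of 2 libraries and numbered points are the libraries. Back Merkel libraries lie lowest (0.161% and 0.140% of counts) and back IFE libraries highest (0.625% and 0.617%).

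The members did not contribute evenly, although their proteins are needed in nearly equal numbers. Rpl4, a large subunit protein that lines the exit tunnel (chromosome 9, 64173375 to 64178666, plus strand, GRCm38), alone held between 21.3% and 37.1% of the family's counts in each library. On the FPKM scale, per transcript length, its level was 831 and 450 in paw Merkel, 1215 and 1605 in paw IFE, 479 and 361 in back Merkel and 1417 and 1664 in back IFE libraries. Next in median FPKM came Rpl41, which encodes a very short large subunit peptide (277), Rps3, a small subunit protein at the mRNA entry channel (221), and Rpl8, a large subunit protein near the catalytic centre (220). In all, 10 members had a median FPKM of at least 100, 28 lay between 10 and 100, 22 between 1 and 10, and 25 under 1.

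Typical levels were lower where more of the coding sequence is shared with other genes. For each member the share of 100-base windows touching the coding sequence of its principal transcript that also occur exactly in a transcript of another GENCODE gene was computed. The 20 members with under 25% shared windows had a typical (median) FPKM of 55.6, the 23 with 25% to 50% had 10.8 and the 42 with more had 1.99. Of the 20 with little sharing, 3 had a median FPKM under 1, the paralogs Rpl3l, Rpl10l and Rpl39l. Spearman's rho between median FPKM and shared percent was -0.42 over all 85 members and -0.59 over the 77 that are not paralogs, a description across genes that share libraries and counting. Rpl12, a stalk base protein with 90.1% of windows shared, was at FPKM 0 in 7 libraries and 0.320 in back IFE library 2, yet held 15 to 285 counts. How the authors treated reads with several matches is not given in the sources used here, and its part in these levels was not tested.

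**Figure D2:**
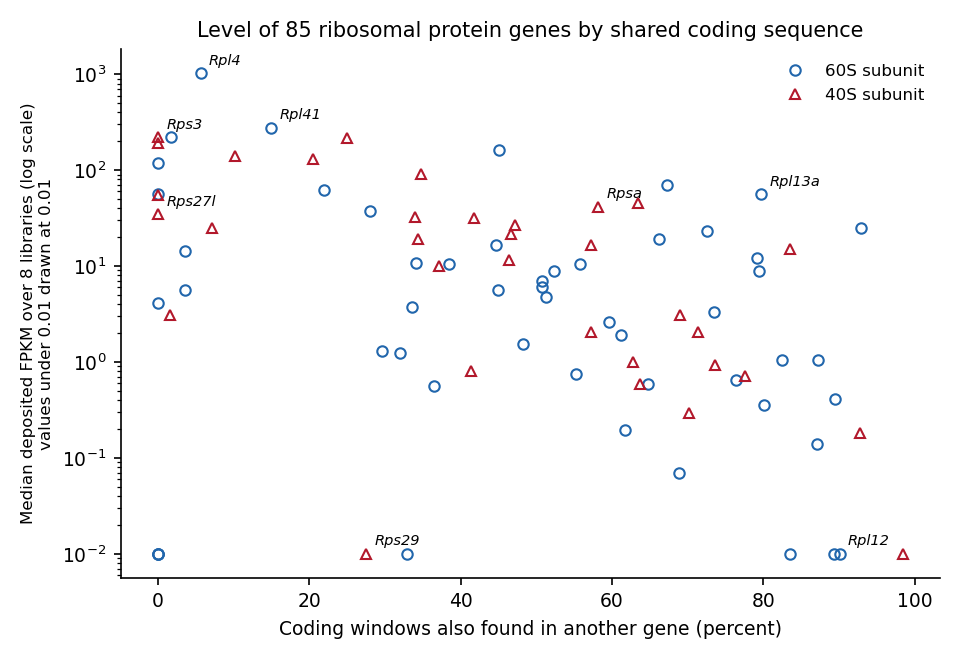
Median deposited FPKM over 8 libraries (log scale, values under 0.01 drawn at 0.01) against the percent of coding windows also found in another gene, for 52 large and 33 small subunit genes. Rpl4 and Rps3, with little sharing, sit near the top, and Rpl12, with 90.1% shared, sits at the bottom beside the undetected paralogs Rpl3l, Rpl10l and Rpl39l, which share under 25%.

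Deposited counts and FPKM disagreed for several of the low members. Rps27, Rpl36a and Rps29, with Rpl12, had the lowest median FPKM (0) among members that are not paralogs. Rps27 held at most 1 count in any library and shared 98.4% of its windows. Rps29 was listed at FPKM 0 in all 8 libraries with up to 25 counts, though it shared only 27.5%. In 11 members at least 4 libraries had 100 or more counts and an FPKM under 1, among them Rpl9 in all 8 libraries (848 to 1550 counts, FPKM at most 0.633). The reverse was seen in Rpl30, with at most 11 counts and an FPKM of up to 34.1. Spearman's rho between counts per kilobase and FPKM was 0.61 to 0.83 per library over the members and 0.89 to 0.91 over all genes. For these members a level near 0 is a property of the deposited values, and the amount of mRNA cannot be read from it.

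Tissue-restricted paralogs were not detected. Rpl3l, a form known from muscle, and Rpl10l and Rpl39l, forms known from testis, had 0 counts in all 8 libraries. They share few coding windows with other genes, under 25% each. Rpl26, a member that is not a paralog, was also at 0 counts in all 8 libraries, with 32.85% of its windows shared. A count of 0 in the deposited values thus does not by itself show that a gene is silent. A count of 0 allows a level of up to 0.115 to 0.269 CPM (before TMM scaling), by library, from a floor of 3 counts, and covers counting error only. Rps27l, a paralog of Rps27 with no shared window, was present: its FPKM was 20.8 and 36.0 in paw Merkel, 33.9 and 46.2 in paw IFE, 26.0 and 2.04 in back Merkel and 78.5 and 61.5 in back IFE libraries. The back Merkel libraries lay below both back IFE libraries, but differed widely from each other. Rpl22l1, a paralog that can stand in for Rpl22, had a FPKM of 1.81 to 12.1 over the 8 libraries, and Rpl7l1 of 0.156 to 8.44. Rps4l and Rpl32l, annotated as pseudogenes in GENCODE vM21, had an FPKM of at most 4.93 and 9.26.

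The comparison of Merkel with IFE cells in back skin addresses how the touch receptor differs from its epidermal neighbours. In back skin 22 of 78 ribosomal protein genes tested (28.2%) were lower in Merkel cells and 0 were higher at an adjusted p under 0.05 (edgeR quasi-likelihood test, Benjamini-Hochberg over 15151 genes). Over all genes tested, 7.45% were lower and 7.99% higher. The median log2 fold change of the 78 was -1.72, against -0.06 for all genes, and 63 of 78 lay below 0. Both libraries of the Merkel group were below both IFE libraries in CPM for 55 of 78 members, against 32.8% of all genes. On deposited FPKM this held for 60 of 78, against 29.8%. The 7 members not tested, which had too few counts, were Rps27, Rpl34, Rpl26, Rpl10l, Rpl30, Rpl39l and Rpl3l.

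The lower members came from both subunits. In the large subunit 11 of 46 tested were lower (Rpl22, Rplp0, Rpl32, Rpl13a, Rpl27a, Rpl4, Rpl14, Rpl41, Rpl23, Rpl15 and Rpl8), with a median log2 fold change of -1.36 over the 46. In the small subunit 11 of 32 were lower (among them Rps3a1, Rps3, Rps9, Rps25, Rpsa, Rps4x, Rps12, Rps15 and Rps14), with a median of -2.19. Rps12 missed the threshold in 7 of the 17 alternatives, limma on log2(FPKM + 1) among them. Its FPKM was at most 0.830 and 92.7% of its windows are shared, so its mRNA level cannot be read. By shared coding sequence, 10 of 17 tested members with under 25% of windows shared were lower, 6 of 20 with 25% to 50%, and 6 of 41 with more. Their median log2 fold changes were -2.52, -1.61 and -1.19. Typical levels also fell across these groups (above), and the part of level in the calls was not tested.

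**Figure D3:**
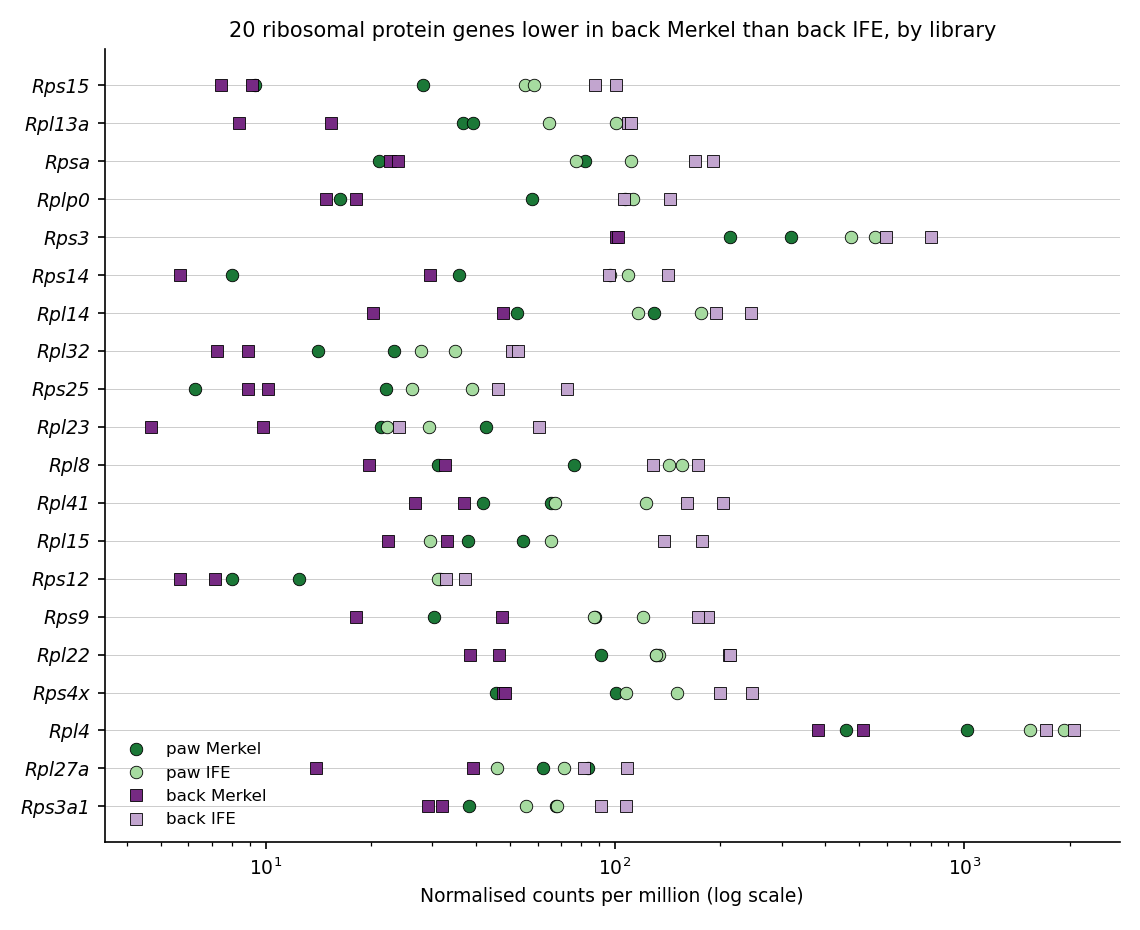
Normalised CPM (log scale) in each library for 20 of the ribosomal protein genes lower in back Merkel than back IFE cells. The 2 back Merkel libraries (dark squares) lie below the 2 back IFE libraries (pale squares) in every row, and Rpl4 has the highest level.

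Small subunit genes were among the largest differences past the threshold. Rps15, a protein of the head of the small subunit (chromosome 10, 80292453 to 80294114, plus strand), measured 9.13 and 7.43 CPM in back Merkel and 87.6 and 101 CPM in back IFE libraries. Every Merkel value lay far below every IFE value, 11.4 times by the fit (log2 fold change -3.51, SE 0.61, adjusted p = 0.00305). Rps3 (chromosome 7, 99477896 to 99483738, minus strand) shares no coding window with another gene. It measured 100 and 102 CPM in back Merkel and 804 and 595 CPM in back IFE libraries, with nearly equal Merkel replicates (log2 fold change -2.79, SE 0.34, adjusted p = 0.000344). Rpsa, known as the laminin receptor precursor as well as a ribosomal protein (chromosome 9, 120127689 to 120132369, plus strand), measured 22.7 and 23.9 CPM against 169 and 191 CPM (log2 fold change -2.95, SE 0.58, adjusted p = 0.00609). In Rpsa 58.1% of windows are shared, so part of its reads could belong to copies.

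Other small subunit genes lay in the same direction, not all of them past the threshold. Rps4x, the X-linked form of Rps4, measured 47.7 and 48.6 CPM against 200 and 246 CPM (log2 fold change -2.21, SE 0.44, adjusted p = 0.00597). Rps14, known from a human anaemia with loss of 1 copy, measured 29.5 and 5.67 CPM against 142 and 96.4 CPM. The back Merkel libraries of Rps14 were far apart, and its adjusted p of 0.0400 rose to 0.169 when back Merkel library 2 was left out, and to 0.0822 when back IFE library 1 was. Rps6, the phosphorylated target of S6 kinases, measured 10.4 and 19.3 CPM against 56.8 and 56.6 CPM without passing the threshold (adjusted p = 0.0861).

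Large subunit genes past the threshold ran from the most abundant member to modest ones. Rpl4 measured 512 and 382 CPM in back Merkel and 1711 and 2055 CPM in back IFE libraries, 4.21 times lower (log2 fold change -2.07, SE 0.40, adjusted p = 0.00555). Leaving out back Merkel library 2 moved the adjusted p of Rpl4 to 0.0611. Rpl13a, a protein that is also known for silencing inflammatory mRNAs when released from the ribosome (chromosome 7, 45125558 to 45128761, minus strand), measured 15.4 and 8.40 CPM against 109 and 111 CPM (log2 fold change -3.21, SE 0.49, adjusted p = 0.00139). Other annotated genes, small nucleolar RNAs among them, overlap 35.4% of the exonic bases of Rpl13a, and 79.7% of its windows are shared. Rpl22, a protein that translation can do without and that has roles in lymphocyte development (chromosome 4, 152325742 to 152334071, plus strand), measured 38.5 and 46.5 CPM against 212 and 213 CPM (log2 fold change -2.32, SE 0.36, adjusted p = 0.00143). Its paralog Rpl22l1 measured 8.37 and 1.56 CPM against 11.1 and 11.6 CPM, lower in both Merkel libraries but far from the threshold (adjusted p = 0.553).

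The stalk and the particle of 5S ribosomal RNA are functional units within the large subunit. Rplp0, the base of the stalk that recruits elongation factors (chromosome 5, 115559467 to 115563727, plus strand), measured 14.8 and 18.1 CPM in back Merkel and 143 and 106 CPM in back IFE libraries (log2 fold change -2.92, SE 0.58, adjusted p = 0.00598). Its partners Rplp1 (3.12 and 0.586 against 18 and 19 CPM, adjusted p = 0.160) and Rplp2 (7.76 and 8.99 against 20.4 and 25.6 CPM, adjusted p = 0.173) had lower values in both Merkel libraries and missed the threshold. Rpl5 and Rpl11, which carry the 5S ribosomal RNA and can bind Mdm2, had the largest positive values among members with at least 10 CPM, neither past the threshold (adjusted p = 0.724 and 0.852). Rpl5 measured 16.9 and 25.2 CPM against 9.93 and 20.5 CPM (log2 fold change 0.47, SE 0.76), with overlapping groups. Rpl11 measured 33.2 and 0.782 CPM against 7.76 and 17.3 CPM (log2 fold change 0.44, SE 1.26), so its 2 Merkel libraries disagreed. In both genes over 75% of coding windows are shared with other genes.

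The call in back skin rested most on back Merkel library 2, without which 10 of the 22 members passed the threshold, against 3.56% of all genes lower. Without back Merkel library 1, 15 members passed, 14 of them among the 22, against 4.78% of all genes. Leaving out back IFE library 1, the one with 1032 CPM of immune markers, left 17 of the 22, against 4.90% of all genes. Of the 22, 8 passed under each of the 17 alternatives tried: Rpl22, Rplp0, Rps3, Rpl13a, Rpsa, Rps4x, Rps15 and Rpl41.

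In paw skin the family lay in the same direction with no member past the threshold. Of 78 tested, 0 were lower and 0 higher by the edgeR test, against 1.93% and 4.28% of all genes. At an unadjusted p under 0.05 there were 9 (11.5%), against 21.1% of all genes. DESeq2 called 5 of 78 lower (6.41%), near its 5.69% of all genes. By limma 0 were called lower or higher, on log2 CPM and on both FPKM scales. Over all genes limma called 2.68% lower on log2 CPM, and 1.25% (pseudocount 1) and 1.23% (pseudocount 0.1) on FPKM. The median log2 fold change was -0.81, against -0.04 for all genes, and 60 of 78 lay below 0. Both paw Merkel libraries were below both paw IFE libraries in CPM for 38 members, against 28.7% of all genes, and on FPKM for 29, against 27.3%.

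Paw Merkel libraries disagreed with each other on this family. Rplp0 measured 57.8 CPM in paw Merkel library 1 and 16.3 CPM in library 2, against 107 and 113 CPM in paw IFE libraries. Rpsa measured 82.1 and 21.1 CPM against 77.4 and 111 CPM. In both genes library 1 lay well above library 2, which was under the highest back Merkel value. Rpl22 behaved otherwise, with 91.1 and 131 CPM against 133 and 131 CPM (log2 fold change -0.25, SE 0.34, adjusted p = 0.736). Without paw Merkel library 1, 11 of 78 members were lower at the threshold (14.1%), against 7.31% of all genes, and the median was -1.51, against -0.35 for all genes. Without library 2, 0 were called and the median was -0.46.

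Single genes of the paw comparison varied widely between replicates. Among members averaging 10 CPM or more in either group, Rps14 had the most negative value, with 35.7 and 8.02 CPM in paw Merkel and 96.8 and 109 CPM in paw IFE libraries (log2 fold change -2.23, SE 0.79, adjusted p = 0.130). It passed under DESeq2 (adjusted p = 0.0260), without the filter on low counts (0.000726) and without paw Merkel library 1 (0.0202). Rpl12 measured 4.12 and 2.30 CPM against 11.3 and 14.1 CPM (log2 fold change -1.97, SE 1.08, adjusted p = 0.333). Rps27a, made as a fusion with ubiquitin, and Rpl28 had the largest positive values among members above that level (log2 fold changes 0.87 and 0.82, SE 1.18 and 1.29). Both rested on paw Merkel library 2, at 19.0 and 16.7 CPM against 2.59 and 4.94 CPM in library 1. Rpl4 measured 1015 and 457 CPM in paw Merkel and 1539 and 1929 CPM in paw IFE libraries (log2 fold change -1.24, SE 0.39, adjusted p = 0.0942), and the groups did not overlap.

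The sites were then compared within each cell type. These comparisons use the same libraries as the ones above, so their values are not independent of them. Between paw and back Merkel cells 0 of 78 members passed the edgeR threshold, against 0.178% of all genes higher and 0.00660% lower in paw. At an unadjusted p under 0.05 there were 8 (10.3%), against 10.2% of all genes. DESeq2 called 3 of 78 higher (3.85%), Rpl22, Rps3 and Rpl13a, against its 2.44% of all genes. Limma called 0, where at most 0.125% of all genes were called in either direction. The median log2 fold change of paw over back was 0.72, against 0.03 for all genes, with 61 of 78 above 0. Without paw Merkel library 1 it was 0.02. In that fit the all-gene median of paw Merkel against paw IFE also moved, from -0.04 to -0.35. Basal keratinocyte markers moved the same way: 8 of 8 lay above 0, with a median of 1.08 and 0 past the threshold. They summed to 4066 and 3495 CPM in paw Merkel and to 1732 and 2868 CPM in back Merkel libraries, without overlap, and their part in the family's difference was not tested. Rps3 measured 319 and 214 CPM in paw Merkel and 100 and 102 CPM in back Merkel libraries (log2 fold change 1.39, SE 0.33, adjusted p = 0.144 by edgeR and 0.0187 by DESeq2). Among members with at least 10 CPM, Rps27a and Rpl23, a large subunit protein that can bind Mdm2, had the largest positive differences (log2 fold changes 2.59 and 2.14, SE 1.25 and 0.72). Rpl11 and Rpl5 had the largest negative ones (-0.50 and -0.42, SE 1.26 and 0.76), both within the spread between libraries.

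For IFE cells the sites were not told apart by the edgeR test. Between paw and back IFE cells 0 of 78 members passed, as did 0% of all genes in either direction, with 1 member (1.28%) at an unadjusted p under 0.05 against 4.24% of all genes. DESeq2 called 0 members, against 0.178% of all genes higher and 0.363% lower in paw, and limma called 0 members. The median log2 fold change of paw over back was -0.28, and on the FPKM scales it was -0.51 (pseudocount 1) and -0.63 (pseudocount 0.1). Both paw libraries were below both back libraries in CPM for 32 of 78 members (41.0%), against 20.2% of all genes, and on FPKM for 43 (55.1%), against 20.0%. Among members averaging 10 CPM or more in either group, Rpl3, a protein of the peptidyl transferase centre, had the largest positive value (53.7 and 50.9 against 25.7 and 25.2 CPM, log2 fold change 1.04, SE 0.57), followed by Rpl7a (0.96, SE 0.99). Rpl39, a small protein of the exit tunnel, had the most negative one above that level (5.01 and 8.49 against 28.4 and 18.2 CPM, log2 fold change -1.79, SE 0.99), followed by Rpl15 (-1.73, SE 0.49). The paw and back groups of Rpl3, Rpl39 and Rpl15 did not overlap, but none passed the adjustment over all genes.

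The larger difference in back than in paw was tested as an interaction, and no member passed it in the 8-library edgeR fit. There 0 of 78 were called, as were 0% of all genes. DESeq2 called 2 of 78 (2.56%), against 1.32% of all genes in that direction, and limma called 0. Without the filter on low counts edgeR called 2 of 81, Rps3 (adjusted p = 0.0367) and Rpl15, against 1.12% of all genes. At an unadjusted p under 0.05 there were 14 members (17.9%), against 9.01% of all genes. The median difference between the log2 fold changes (paw minus back) was 0.93 over the members and 0.06 over all genes. Without paw Merkel library 1 it was 0.30 over the members, in a fit where the all-gene median of the paw comparison was -0.35. Rpl22, chosen after its values were seen, had the smallest adjusted p (difference 2.07, SE 0.49, adjusted p = 0.258, and 0.0309 by DESeq2). The second DESeq2 call was Rps3 (difference 1.84, SE 0.46, adjusted p = 0.285, and 0.0481 by DESeq2). The largest differences among members with at least 10 CPM were those of Rps27a (3.34, SE 1.70) and Rpl23 (2.85, SE 0.99), and the most negative those of Rpl29 (-1.67, SE 1.99) and Rps23 (-1.32, SE 1.64). Basal keratinocyte markers had a median difference of 1.14, with 8 of 8 above 0 and 0 past the threshold. Whether a member called in back and not in paw differs between the sites thus depended on the filter and the test, and for all but Rpl22, Rps3 and Rpl15 none of the fits run called it.

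**Figure D4:**
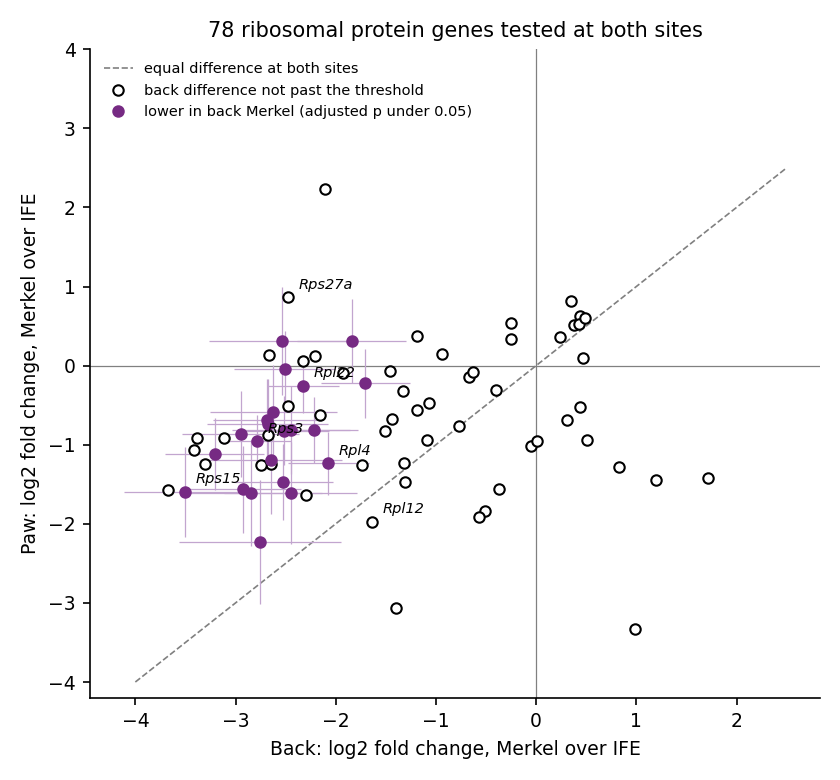
Log2 fold change of Merkel over IFE cells in back (horizontal) and paw (vertical) for 78 ribosomal protein genes; filled points are the 22 lower in back and bars are their standard errors. The filled points were chosen by their back difference, which by itself favours a place above the dashed line of equal difference. Over all 78 genes the back median was -1.72 and the paw median -0.81.

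Genes that work with the ribosome were counted in the same fit, with lists made in knowledge of earlier results of these data. Ribosomal protein genes outside the symbol rule gave 2 lower of 4 tested in back skin, where 7.45% of all genes were lower and 7.99% higher. Rpl36al measured 9.96 and 5.67 CPM in back Merkel and 80.9 and 80.8 CPM in back IFE libraries (log2 fold change -3.37, SE 0.56, adjusted p = 0.00222). Rack1, a scaffold on the small subunit, measured 86.6 and 64.7 CPM against 304 and 290 CPM (log2 fold change -1.97, SE 0.35, adjusted p = 0.00355). Of the elongation and termination factors 5 of 13 (38.5%) were lower (Eef1a1, Eef1b2, Eef1g, Eif5a and Etf1) and 0 higher, with a median log2 fold change of -0.95. Eef1a1, which delivers aminoacyl-tRNA, measured 241 and 257 CPM against 1100 and 1029 CPM (log2 fold change -2.10, SE 0.32, adjusted p = 0.00139). Eef1b2, its exchange factor, and Eif5a had log2 fold changes of -2.57 (SE 0.44) and -2.23 (SE 0.43).

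Calls among ribosome assembly genes were all in the lower direction. Of 50 ribosome biogenesis and RNA polymerase I genes, back Merkel cells had 16 (32.0%) at lower and 0 at higher levels (median -1.21). Npm1, a nucleolar chaperone, measured 83.4 and 91.4 CPM against 349 and 428 CPM (log2 fold change -2.15, SE 0.35, adjusted p = 0.00191). Dkc1 and Gar1, both of the pseudouridylation complex, had log2 fold changes of -2.68 (SE 0.44) and -2.69 (SE 0.46). Ncl, a nucleolar protein of ribosomal RNA processing, measured 1073 and 862 CPM against 1884 and 3479 CPM (log2 fold change -1.47, adjusted p = 0.0196). Leaving out either back Merkel library or back IFE library 2 moved the adjusted p of Ncl to between 0.0619 and 0.149, and without back IFE library 2 its log2 fold change was -0.96. Of 38 initiation factors 3 were lower (Eif2s1, Eif3k and Pabpc1), a share of 7.89% near the 7.45% of all genes, and 1 was higher (2.63%). The higher one was Eif4e3, a cap-binding protein, at 136 and 219 CPM against 64.2 and 56.1 CPM (log2 fold change 1.56, SE 0.36, adjusted p = 0.0144). It missed the threshold when back Merkel library 2 or either back IFE library was left out (adjusted p up to 0.139). The log2 fold change of Eif2s1 was -1.78 (adjusted p = 0.00430). Leaving out back Merkel library 2 moved it to 0.0529. The log2 fold change of Pabpc1 was -1.59 (adjusted p = 0.0252, up to 0.164 with 1 back Merkel library left out).

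The list of TOP mRNA control, mTORC1 pathway and Myc family genes was called at shares near those of all genes. Of 35, 2 were lower (Myc and Cnbp) and 2 higher (Tsc2 and Larp1b) in back Merkel cells, 5.71% each way against 7.45% and 7.99% of all genes, with a median of 0.17. Cnbp, a protein that binds TOP mRNAs, measured 303 and 285 CPM against 1106 and 1018 CPM (log2 fold change -1.85, SE 0.32, adjusted p = 0.00310). Myc, which drives ribosome biogenesis genes, measured 7.30 and 14.2 CPM against 108 and 101 CPM (log2 fold change -3.28, SE 0.81, adjusted p = 0.0186, up to 0.104 without a back Merkel library). Tsc2, an inhibitor of mTORC1, measured 88.7 and 122 CPM against 40 and 34 CPM (log2 fold change 1.51, SE 0.40, adjusted p = 0.0269). Its adjusted p reached 0.168 among the fits without back Merkel library 2 or a back IFE library. Larp1 itself measured 163 and 229 CPM against 227 and 305 CPM (adjusted p = 0.401). Of 10 noncoding genes whose transcripts carry TOP motifs 1 was lower, Gas5, at 277 and 298 against 739 and 778 CPM (log2 fold change -1.40, adjusted p = 0.0240, up to 0.114 without a back Merkel library or back IFE library 2). Mitochondrial ribosomal proteins gave 1 lower of 78, Mrpl50 (log2 fold change -1.63, adjusted p = 0.0348, up to 0.161 in fits that leave out 1 library), with a median of -0.77. On both FPKM scales (limma) the calls of Pabpc1, Ncl, Myc, Gas5 and Mrpl50 were not past the threshold.

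In paw skin the same lists gave 2 calls in all, where 4.28% of all genes were higher and 1.93% lower. These were 1 of 38 initiation factors (2.63%) and 1 of 50 biogenesis genes (2%), and the other lists gave 0. Eif4e3 was higher in Merkel cells, at 194 and 195 CPM against 45.5 and 40.6 CPM (log2 fold change 2.18, SE 0.37, adjusted p = 0.00496). Leaving out paw IFE library 2 moved the adjusted p to 0.0521. Eif4e3 was thus called higher at both sites. Dkc1 was lower, at 134 and 59.5 CPM against 311 and 389 CPM (log2 fold change -1.85, SE 0.43, adjusted p = 0.0270). Its adjusted p was 0.0994 when paw Merkel library 2 was left out and 0.0933 when paw IFE library 2 was. It was 0.0913 in the fit of only the paw groups, and 0.0591 and 0.0621 on the FPKM scales. Median log2 fold changes in paw were -0.81 for the biogenesis genes, -0.79 for elongation factors, -0.40 for initiation factors and -0.32 for mitochondrial ribosomal proteins.

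**Figure D5:**
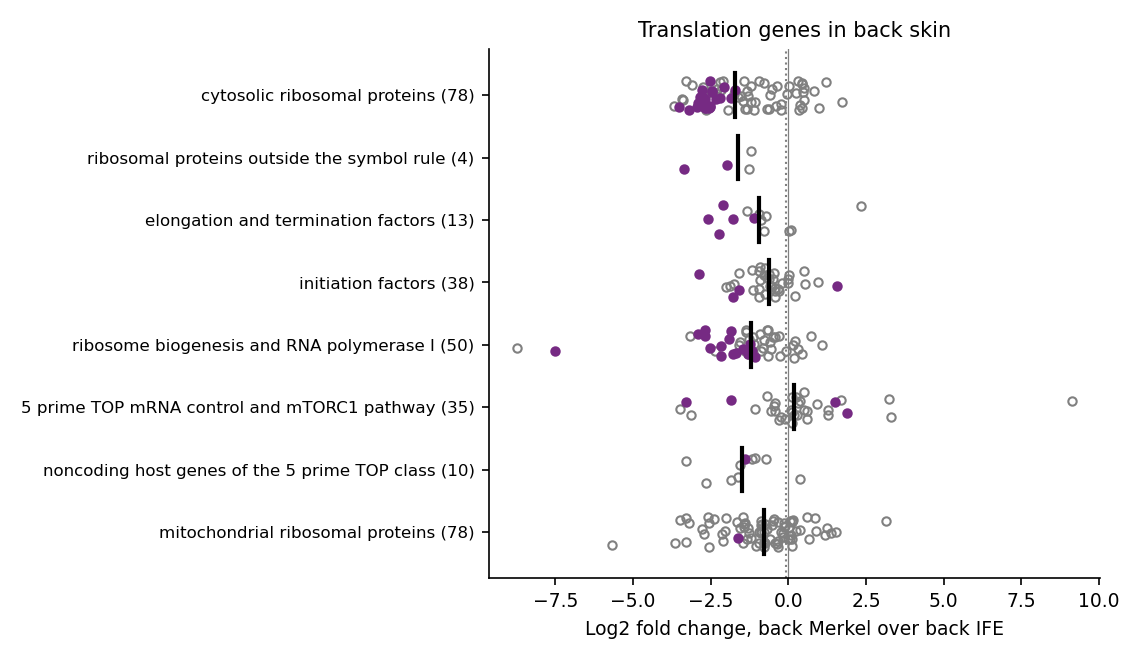
Log2 fold change of back Merkel over back IFE cells for each gene tested, by list, with the number of genes in brackets; filled points passed an adjusted p of 0.05, black bars are list medians and the dotted line is the median of all genes. The cytosolic ribosomal proteins have the lowest median (-1.72) and the TOP and mTORC1 list lies near 0 (0.17).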

How the data were processed

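RNA of 8 libraries was amplified (Ovation V2) before paired-end sequencing of 150 bases, per the labels' protocols. The deposited gene counts and the deposited FPKM values are the authors'. The submitters' processing notes name mm10, TopHat2 2.0.13, Cufflinks 2.2.1, featureCounts (Subread 1.4.6) and DESeq2 1.6.3. Annotation, strand and handling of multiple matches are not given in the sources used here. Counts were tested with edgeR 4.0.16 (R 4.3.3): filterByExpr by group, TMM, glmQLFit with 1 mean per group over 8 libraries, glmQLFTest, Benjamini-Hochberg over 15151 genes. Steps were tested on simulated data. Alternatives used DESeq2 1.42.0, limma 3.58.1 on log2 CPM (prior count 2) or log2(FPKM + 1 or 0.1), other scalings, no filter, 2 groups, a replicate block, and each library left out. Amplified reads are not independent molecules, so floors cover counting error only. Gene positions are from GENCODE vM21 (GRCm38), where all 85 members were found by symbol, and start sites from RefSeq GRCm38.p6.

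Genes were given with values by rule. The rule took paralogs with parents, stalk genes, level extremes, textbook examples and up to 3 called genes of each list, with Ncl and Larp1 added. In each comparison it took up to 6 called members per direction and the 2 largest differences with at least 10 CPM in the higher group. Other called genes were listed by name only. Of these, Eef1g, Etf1, Eif3k and Larp1b were not followed in the alternatives. The members of the family and the lists were chosen with earlier results of these data known. Protein sequences were not used here. A few members that the rule would name are not reported here by name, and the counts include them.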

Additional observations from a re-analysis of the deposited data

How the results depend on the processing

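In back skin the number of lower members was 19 to 32 across the scalings, filters, tests, FPKM values and the fit of only the 2 groups, and 10 to 27 when 1 library was left out, lowest without back Merkel library 2. In paw it was 0 by the main test, 5 without the filter on low counts and 5 by DESeq2 (6.17% and 6.41%), and 0 to 11 with 1 library left out. Of all genes tested, 4.08% were lower in paw without the filter and 5.69% by DESeq2. In back that share ran from 7.13% (DESeq2 scaling) to 12.5% (DESeq2 test) over the fits with no library left out. With 1 library left out, the shares of all genes moved as well (above). Between Merkel cells of the sites, members higher in paw numbered 1 without the filter (1.23%) and 3 by DESeq2 (3.85%). Over all genes the shares were 1.81% and 2.44%. For the interaction the number of members called was 2 without the filter (2.47%) and 2 by DESeq2 (2.56%). Over all genes the shares in that direction were 1.12% and 1.32%. The median log2 fold change in paw was -0.39 on log2(FPKM + 1) and -1.51 to -0.46 with 1 library left out. In back it was -1.56 on log2(FPKM + 1), -2.10 on log2(FPKM + 0.1) and -2.23 to -1.63 with 1 library left out. Between Merkel sites it was 0.018 to 1.01 with 1 library left out. Between IFE sites it was -0.51 on log2(FPKM + 1) and -0.63 on log2(FPKM + 0.1). For the interaction it was 1.26 on log2(FPKM + 0.1) and 0.30 to 1.42 with 1 library left out. Medians over all genes also moved in such fits, in paw from -0.04 to -0.35 without paw Merkel library 1. The cause of these shifts was not tested.

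Replicate numbers were checked as a pairing: deviations of same-numbered libraries correlated at -0.04 to 0.08 over the 6 pairs of groups. No strong shared deviation was seen, but these values cannot tell whether same-numbered libraries share an origin. With the replicate block 21 members were lower in back (26.9%, median -1.85), against 8.12% of all genes. In paw 2 were lower (2.56%), near the 2.78% of all genes.

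Some differences that missed the threshold changed sign. Rpl11 in back was -1.10 on log2 CPM, -0.53 on log2(FPKM + 1), -1.30 on log2(FPKM + 0.1) and -4.01 to 1.4 with 1 library left out. Rpl11 between Merkel sites was 0.88, 0.65 and 1.44 on those scales and -1.73 to 3.96 with 1 library left out. Rpl5 between Merkel sites was 0.60 and 0.65 on the FPKM scales, and Rps23 in the interaction 0.83 and 1.14. With 1 library left out, the paw difference ran from -1.19 to 1.67 for Rps27a and from -0.31 to 1.43 for Rpl28. Between Merkel sites it ran from -0.13 to 1.82 for Rpsa and from -0.0029 to 1.81 for Rplp0. The interaction ran from -4.98 to 0.35 for Rpl29.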
